A study of Mus musculus with 8 samples.

Results

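The comparison sets 2 late Setdb1 knockout crypt libraries, titled VEMD6 and VEMD8, against 3 early ones, titled VEMD2, VEMD3 and VEMD4. These are 5 of the 8 samples of the series and 5 of its 6 crypt libraries. All 5 came from intestinal crypts of C57BL/6 mice labelled setdb1 iIEC-KO and aged 8 weeks. A tamoxifen-activated Cre under the Villin promoter removed the floxed gene from intestinal epithelium, after 1 gavage dose of 800 mg/kg. Early and late libraries carry the same genotype, tamoxifen dose and age in the labels, and differ there only by the number in the title. The labels do not say what VEMD stands for. The deposited table is titled by days, so the numbers serve here as names, and "early" and "late" stand for lower and higher numbers. The wild-type crypts (setdb1fl/fl, same tamoxifen dose) took part only in the filter on low values.

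SETDB1 is a histone methyltransferase that places trimethyl marks on lysine 9 of histone H3 and so keeps retroelements and other sequences silent. Intestinal crypts hold the stem cells of the epithelium, their dividing daughters, and secretory cells such as Paneth, goblet and enteroendocrine cells, while absorptive enterocytes mature as they leave the crypt for the villus. The p53 protein is switched on by DNA damage and raises genes of cell cycle arrest and cell death. Which of these programmes differed between lower and higher library numbers, within knockout crypts alone, is what the comparison describes.

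The 5 libraries are not labelled as replicates of one another. Each arm mixes libraries with different numbers, so the spread within an arm holds both the difference between mice and whatever the number marks, and the p-values measure only that spread. Nothing in the labels says whether a library is 1 mouse or several. The deposited values are FPKM, fragments per kilobase of gene scaled to library size. No counts were used, and depth is not known for any library. FPKM summed to between 511006 and 566585 in the early libraries and to 481519 and 491879 in the late ones. Across tested genes, which are not independent of one another, log2 values correlated at 0.970 between VEMD6 and VEMD8, at 0.949 to 0.981 among the early libraries, and at 0.898 to 0.949 between the arms.

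Of 10862 tested genes, 1706 (15.7%) were higher in both late libraries than in all 3 early ones, and 4761 (43.8%) were lower in both. Such genes are called apart below, since the ranges of the 2 arms do not overlap. With a difference of at least 1 in mean log2(FPKM + 1), late minus early, 366 (3.37%) were apart and higher and 528 (4.86%) apart and lower. That balance turned round with a pseudocount of 5 FPKM, at 226 higher and 168 lower, and with each library rescaled to its own median gene, at 540 higher and 306 lower, while a pseudocount of 0.1 FPKM gave 418 and 920. By limma, a linear model with a spread shared across genes, 405 genes (3.73%) rose and 1088 (10.0%) fell at a Benjamini-Hochberg adjusted p under 0.05. The tested genes as a whole were shifted, with a median difference of -0.24, so a small drop is to be read against that value. After the same rescaling, 2713 genes were apart and higher and 3488 apart and lower. That rescaling turned the share of higher genes among the limma calls from 27.1% to 50.4%, with 559 that rose and 551 that fell.

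The limma calls lean on single libraries. Without VEMD6 only 5 genes rose and 1 fell, and without VEMD3 the counts were 10 and 19. Without VEMD2 they were 192 and 328, and without VEMD8 617 and 2187. Just 4 genes passed the test with all libraries and again without each of them in turn, namely Akp3, Pdx1, Slc13a1 and the ribosomal pseudogene Rpl34-ps1. Below, "rose" and "fell" are kept for genes that passed limma with all 5 libraries, and the counts of genes apart are given beside them. A gene apart with all 5 libraries stays apart when 1 is left out, so such counts can then only stay or grow. Over all tested genes, those higher and lower were 2060 and 5239 without VEMD2, and 1798 and 4844 without VEMD3. They were 2209 and 5851 without VEMD4, 2496 and 5292 without VEMD6, and 2454 and 6572 without VEMD8. Values are listed in the order VEMD2, VEMD3 and VEMD4 for early and VEMD6 and VEMD8 for late.

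**Figure D1:**
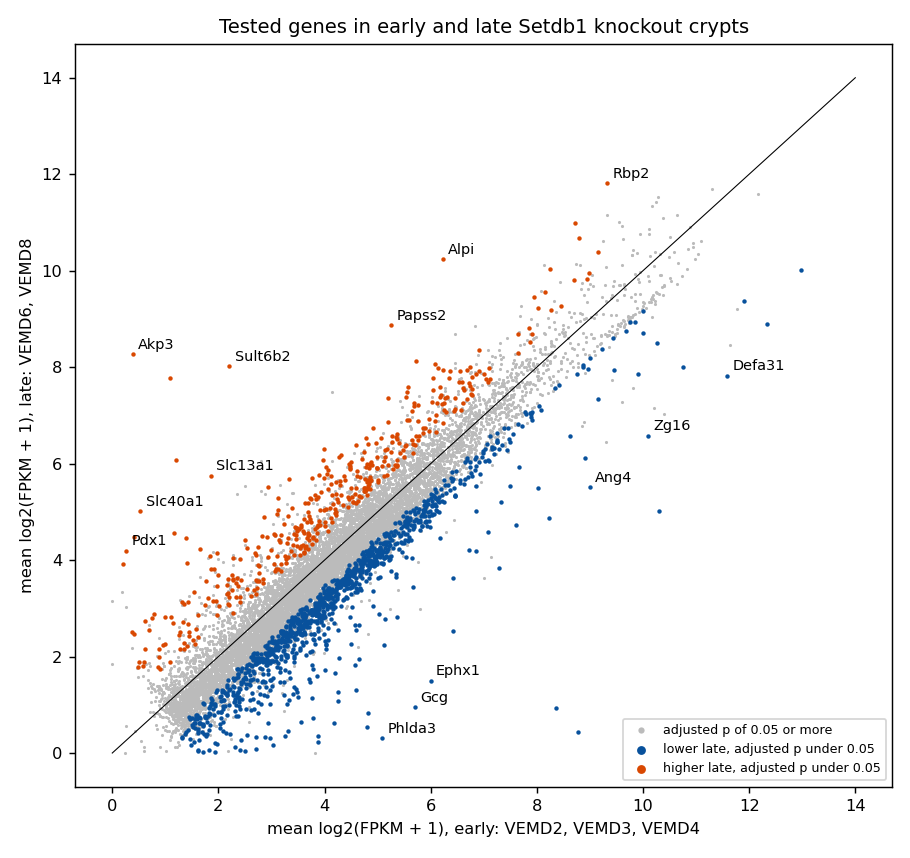
Mean log2(FPKM + 1) of the 10862 tested genes in the early libraries (horizontal axis) and the late libraries (vertical axis), with the diagonal marking equal values. Orange points are the 405 genes that rose and blue points the 1088 that fell by limma, and Akp3 and Phlda3 lie farthest from the diagonal among the named genes on either side.

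Setdb1 itself (gene 84505, chromosome 3, 95323525 to 95357202 on GRCm38) stood at 6.64, 7.03 and 5.49 FPKM early and 3.53 and 4.95 late. The ranges were apart, with both late values below the lowest early one. The difference was -0.50 on the log2(FPKM + 1) scale (SE 0.19) and did not pass limma (adjusted p = 0.104). These values cover the gene as a whole and not the deleted exons by themselves.

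Genes are named from the 15 highest and the 15 lowest differences among genes that were apart. Akp3, an intestinal alkaline phosphatase (gene 11648, chromosome 1, 87124954 to 87128728), was at 0.54, 0.11 and 0.30 FPKM early and 544 and 173 late, a rise of 7.88 (SE 0.46, adjusted p = 0.00546). It was under 1 FPKM in every early library and among the abundant genes of both late ones. Alpi, the classical brush border alkaline phosphatase and a neighbour of Akp3, was at 61.96, 43.7 and 148 early and 1585 and 925 late and rose by 4.02 (SE 0.52, adjusted p = 0.0283). The pair are close copies, so how the authors' counting split their reads is uncertain.

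Tmprss15, or enteropeptidase, which activates pancreatic trypsin, was at 0.10, 0.20 and 0.78 early and 29.7 and 15.01 late. Slc40a1, or ferroportin, the iron exporter, was at 0.16, 0.28 and 1.03 early and 46.7 and 20.9 late. Slc13a1, a sodium-sulfate cotransporter (gene 55961, chromosome 6, 24088283 to 24168119), was at 2.37, 2.34 and 3.20 early and 36.5 and 76.2 late. All of them rose, by 4.06, 4.48 and 3.89 in that order, and in none did the arms come near each other. Papss2 makes the activated sulfate used to sulfate other molecules, and Sult6b2 belongs to the sulfotransferase family. Papss2 went from 30.6, 32.4 and 52.2 early to 361 and 601 late (3.61, SE 0.31, adjusted p = 0.011), and Sult6b2 from 1.13, 3.06 and 10.3 to 171 and 393 (5.82, SE 0.71, adjusted p = 0.0241). Both late values of either gene lay far above its highest early one.

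Pdx1, a transcription factor of duodenum and pancreas (gene 18609, chromosome 5, 147270097 to 147275848), was at 0.19, 0.23 and 0.19 FPKM early and 17.9 and 16.7 late. It had the smallest adjusted p among the named genes, 0.00168, for a rise of 3.93 (SE 0.15), and the values within each arm were nearly equal. Slc37a2, a sugar-phosphate exchanger, rose from 0.17, 0.14 and 0.16 to 28.9 and 6.72 (3.72, adjusted p = 0.0305). Ccl20, a chemokine that draws lymphocytes and dendritic cells, rose from 0.43, 1.23 and 2.49 to 14.1 and 35.7 (3.40, adjusted p = 0.0307). Gulo, an oxidase of vitamin C synthesis, was at 3.03, 22.7 and 57.2 early and 152 and 206 late, and Arg2, the mitochondrial arginase, at 23.2, 2.71 and 2.82 early and 98 and 43.5 late. Neither passed limma (adjusted p = 0.0698 and 0.0541), and the early libraries differed widely among themselves.

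Of the 15 highest genes, 3 more have near copies, so their values are uncertain. Hmga1b, an intronless copy of the chromatin protein gene Hmga1, was at 0.05, 0.88 and 5.09 early and 64.6 and 68.6 late, while Hmga1 itself fell, from 389, 452 and 342 to 79.8 and 111 (-2.05, SE 0.21, adjusted p = 0.0176). The pseudogene Rpl34-ps1 was at 1.17, 1.77 and 0.62 early and 168 and 279 late, while Rpl34 fell, from 664, 804 and 633 to 212 and 285 (-1.50, SE 0.21, adjusted p = 0.0305). In both pairs the copy was high where the parent gene was low. Defa2, an alpha-defensin with many close relatives, was listed at 0 in every early library and at 36.9 and 1.11 late. Hmga1 and Rpl34 were added to the named genes after their values were seen.

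Among the 15 lowest genes were targets of p53 and products of secretory cells, described with their lists below. Of the 15 lowest genes 13 fell by limma, and of the 15 highest 12 rose. Both sets were chosen by the same difference that limma tests, so these counts are no separate support. Without VEMD6 those counts were 0 and 4, and without VEMD3 they were 6 and 7. By level alone, 9 genes were at 5 FPKM or more in every early library and under 1 FPKM in both late ones. Phlda3, Psrc1, Plk2, Crip2, Fabp6, Pyy, Serpina1b, Mbl2 and an unnamed gene make up that set. The reverse held for 4 genes, Akp3, Pdx1, Tmprss15 and Slc37a2. These limits were chosen after the values were seen.

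**Figure D2:**
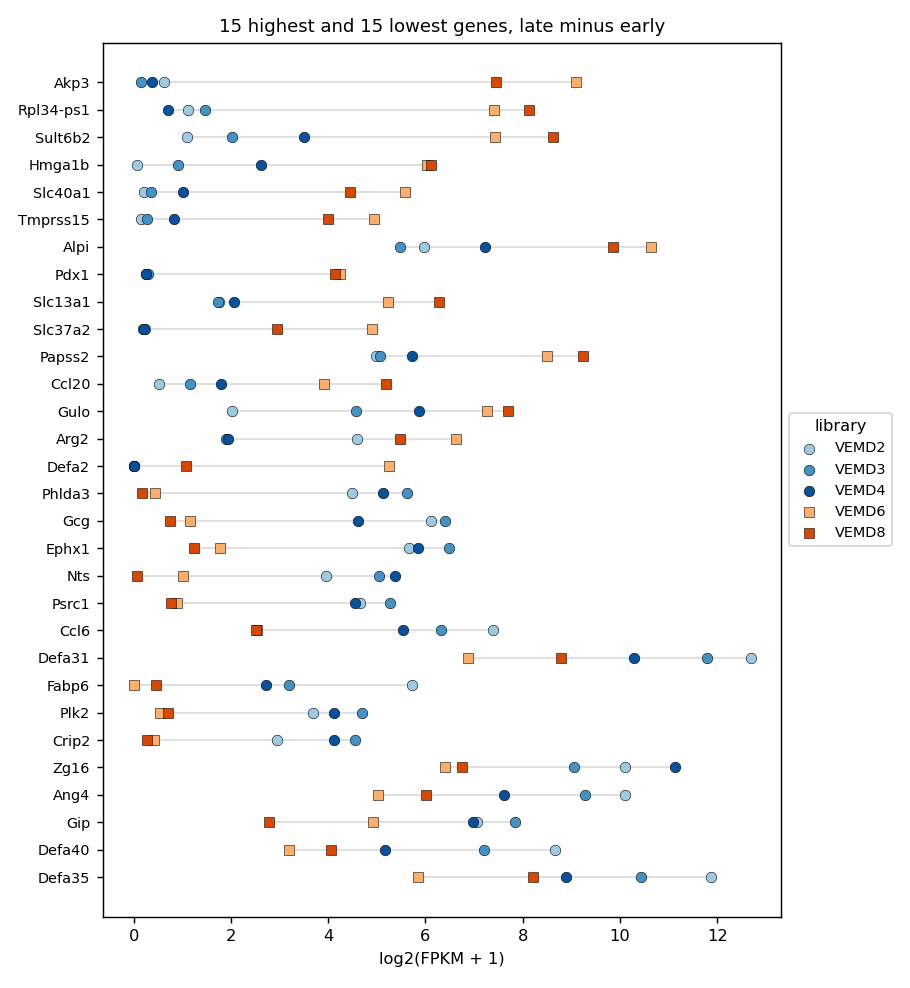
Values of the 15 highest genes (top to middle) and the 15 lowest (below) in each knockout library, as log2(FPKM + 1). Circles are the 3 early libraries and squares the 2 late ones, and in every gene the squares lie to one side of the circles, which the choice of genes requires.

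Targets of p53 had the lowest median of all the pathway lists. Of 40 tested members, 31 were apart and lower and 2 apart and higher, and 23 fell by limma while none rose. The background for those counts is 43.8% apart and lower and 10.0% fallen among all tested genes. The median difference over the members was -1.37, against -0.24 over all tested genes. Summed over members, FPKM came to 1291, 1847 and 1549.9 early and to 970.4 and 783 late.

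Phlda3, which blocks the kinase Akt (gene 27280, chromosome 1, 135766085 to 135769134), was at 21.6, 48.2 and 33.8 FPKM early and 0.36 and 0.12 late. It fell by 4.77 on the log2 scale (SE 0.33, adjusted p = 0.0072), from a plain signal in each early library to almost none. Ephx1, an epoxide hydrolase, was at 49.6, 89.03 and 56.4 early and 2.42 and 1.35 late, and Psrc1, a microtubule protein, at 24.2, 37.7 and 22.3 early and 0.85 and 0.70 late. Ephx1 fell by 4.50 (SE 0.29, adjusted p = 0.00614), and Psrc1 fell by 3.998 (SE 0.24, adjusted p = 0.00546). Plk2, a polo-like kinase, was at 11.9, 25.1 and 16.4 early and 0.46 and 0.63 late. Trp53inp1, a p53-induced stress protein, was at 15.98, 35.05 and 22.2 early and 1.73 and 1.24 late. Each fell by more than 3 on the log2 scale, Plk2 by 3.55 and Trp53inp1 by 3.29.

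Ccng1, or cyclin G1, fell from 116, 174 and 121 FPKM to 22.7 and 22.8 (-2.52, SE 0.21, adjusted p = 0.0104). The death gene Bax, whose product opens mitochondria, was at 134, 202 and 152 early and 32.9 and 39.1 late and fell by 2.13 (adjusted p = 0.0165). Bbc3, which encodes the death protein PUMA, was at 6.16, 9.60 and 4.37 early and 1.82 and 1.36 late and fell by 1.52 (adjusted p = 0.0376). Mdm2, the ligase that degrades p53, was at 37.4, 62.4 and 49.1 early and 21.2 and 19.6 late and fell by 1.21 (adjusted p = 0.0356). Each of these 4 genes stood lower in both late libraries than in any early one.

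Not every target followed. Cdkn1a, or p21, the best known p53 target of arrest, was at 201, 311 and 295 early and 239.9 and 125 late, so that VEMD6 lay inside the early range (-0.61, adjusted p = 0.211). The death gene Pmaip1 was at 13.3, 17.5 and 36.6 early and 36.2 and 27.9 late, again with overlap. The death receptor gene Fas was at 11.6, 8.78 and 7.72 early and 25.3 and 12.6 late, apart and higher, and Cgref1, a growth regulator, at 52.5, 35.9 and 59.2 early and 138 and 82.03 late. Neither of those passed limma (adjusted p = 0.0895 and 0.0532). Trp53, the gene of p53 itself, fell from 71.5, 85.8 and 69.2 to 33.4 and 38.6 (-1.05, SE 0.16, adjusted p = 0.0317). Without VEMD6 none of the 40 targets passed limma (29 at an unadjusted p under 0.05), while 32 were apart and lower. Leaving out a library cannot lower that count of genes apart. Without VEMD3, 8 fell, and after rescaling to the median gene 22 fell.

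Promoter stretches from RefSeq (GRCm38.p6) are shown for a pair of these targets, 1 that fell and 1 whose ranges overlap, since both hold a match to the p53 consensus near the start site. The search covered the 250 bases before each start on both strands, with up to 2 mismatches over the 20 letters of the consensus. A match was found in 3 of 29 targets with a promoter (Cdkn1a, Ccng1 and Ckap2) and in 31 of 8804 tested genes with one (0.352%). The match is in capitals and the flanks are 20 bases on each side.
Cdkn1a, chr17:29090908-29090967, plus strand: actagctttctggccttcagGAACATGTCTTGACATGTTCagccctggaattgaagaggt
Ccng1, chr11:40755442-40755501, minus strand: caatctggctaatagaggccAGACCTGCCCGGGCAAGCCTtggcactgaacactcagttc
The match ran from -51 to -32 of the start site in Cdkn1a and from -195 to -176 in Ccng1. Ckap2, a mitotic protein gene, was at 21.9, 25.3 and 17.2 early and 4.49 and 8.12 late and fell by 1.65 (adjusted p = 0.0324). A match describes letters only.

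Genes of growth were lower late as a block. In bulk crypts, fewer cells of a type and less RNA per cell cannot be told apart, which holds for every group below. All 27 ribosome biogenesis genes were apart and lower, with a median of -0.997, and 23 fell by limma. All 57 cytosolic ribosomal protein genes were apart and lower too, with mean differences in a narrow range of -0.92 to -0.48 on the log2 scale, and 7 fell. The background for each list of growth genes is 43.8% apart and lower and 10.0% fallen among all tested genes. The 7 ribosomal protein genes that fell were near that background, while the count apart and lower was well above it. Those ribosomal protein genes remained lower and apart in all 57 cases after rescaling, where limma passed none of them. Their sum was 51511, 58553 and 49579 FPKM early and 26559.8 and 38439.9 late.

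Myc, the transcription factor that drives ribosome production, was at 47.5, 53.1 and 46.5 FPKM early and 13.2 and 18.2 late, and fell by 1.60 (SE 0.17, adjusted p = 0.0186). Npm1, or nucleophosmin of the nucleolus, fell from 961, 1130.3 and 969 to 308 and 557 (-1.29, adjusted p = 0.0421). Nop56, a core protein of small nucleolar particles, fell from 116, 124 and 105 to 34.1 and 60.5 (-1.31, adjusted p = 0.0364). In each of these VEMD6 was the lowest library and VEMD8 the next. The palindrome CACGTG, an E-box that MYC can bind, lay in the promoter window of 1 of 21 ribosome biogenesis genes (Nop2) and of 899 of 8804 tested genes (10.2%).

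Cell cycle and proliferation genes counted 38 of 43 apart and lower and 22 that fell, with a median of -0.79. Ccne2, or cyclin E2, which starts DNA replication, was at 14.1, 18.2 and 13.9 FPKM early and 3.28 and 4.17 late and fell by 1.79 (SE 0.18, adjusted p = 0.0176). Mcm2 and Mcm5, subunits of the replicative helicase, fell by 1.17 and 1.11 (adjusted p = 0.0283 and 0.0324). Mki67, the usual mark of dividing cells, did not follow, at 53.1, 41.05 and 35.8 early and 25.1 and 44.2 late with overlap (-0.35, adjusted p = 0.373). DNA double-strand break repair genes, many of them also tied to replication, were apart and lower in 28 of 34, against 43.8% of all tested genes. Of the 34, 5 fell, nearer to the 10.0% of all tested genes. Among the repair genes, the checkpoint kinase genes Chek1 and Chek2 fell by 0.85 and 0.82 (adjusted p = 0.0484 and 0.0409).

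Crypt base stem cell genes were apart and lower in 19 of 22, and 12 fell, with a median of -1.10. Ascl2, a factor of stem cell fate, was at 6.74, 9.99 and 7.31 FPKM early and 1.65 and 3.37 late and fell by 1.39 (adjusted p = 0.0368). Igfbp4 fell from 18.4, 29.5 and 25.4 to 3.70 and 7.42 (-1.99, adjusted p = 0.0318). Cd44, an adhesion receptor of crypt cells, fell from 34.5, 56.1 and 48.6 to 13.7 and 18.3 (-1.47, adjusted p = 0.0324). Lgr5, the defining marker of these stem cells, was low everywhere, at 1.60, 0.71 and 1.07 early and 0.41 and 0.32 late, and did not pass limma (adjusted p = 0.104). Olfm4, another stem cell marker, overlapped, at 479.9, 276 and 129 early and 154 and 300.4 late. The markers of this list thus did not all move alike.

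Wnt ligands keep crypt stem cells dividing. Among Wnt target and pathway genes, 17 of 23 were apart and lower and 11 fell, with a median of -0.79. Ccnd1, or cyclin D1, was at 118, 124 and 103 FPKM early and 30.1 and 33.2 late and fell by 1.83 (SE 0.15, adjusted p = 0.0104). Tcf7, a nuclear partner of beta-catenin, fell from 8.20, 11.7 and 9.77 to 2.18 and 3.26, and Axin2, a feedback inhibitor, from 23.9, 27.3 and 19.9 to 8.37 and 10.3. Wnt3, the ligand that Paneth cells secrete, fell from 3.28, 3.03 and 1.72 to 0.28 and 0.74 (-1.27, adjusted p = 0.0406). The transducers Ctnnb1 and Apc, by contrast, overlapped between arms, with differences of -0.14 and -0.01.

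Without VEMD6, limma passed none of the growth genes just described. At an unadjusted p under 0.05 there then remained 26 of 27 ribosome biogenesis genes, 24 of 43 proliferation genes, 14 of 22 stem cell genes and 13 of 23 Wnt genes. The same lists then held 27, 38, 19 and 19 genes apart and lower, counts that leaving out a library cannot lower. VEMD6 was the lowest library for each of these 4 lists, and the median over members, taken from each gene's mean, was -0.92 in VEMD6 and -0.28 in VEMD8 for ribosome biogenesis. Without VEMD3, 1 Wnt gene fell and no gene of the other 3 lists did. Rescaled to the median gene, 11 proliferation genes and 7 stem cell genes fell, and 1 double-strand break repair gene.

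Genes of the secretory lineages were mostly lower late. Enteroendocrine cells release gut hormones into the blood. Of 30 listed genes 20 passed the filter on low values, and all 20 were apart and lower, 15 of them fallen by limma, with a median of -1.96. Gcg, which encodes proglucagon, was at 68.1, 83.6 and 23.4 FPKM early and 1.24 and 0.67 late and fell by 4.75 (SE 0.53, adjusted p = 0.0191). Nts, or neurotensin, fell from 14.6, 31.8 and 40.5 to 1.01 and 0.05 (-4.25, adjusted p = 0.0191). Gip, the glucose-dependent insulin-releasing peptide, fell from 133, 228 and 125 to 29.2 and 5.84 (-3.45, adjusted p = 0.035). VEMD3 was highest and VEMD8 lowest for the list as a whole.

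Somatostatin (Sst) fell from 22.3, 46.9 and 36.7 FPKM to 7.50 and 1.59, and chromogranin A (Chga), a granule protein shared by endocrine cells, from 46.3, 74.3 and 18.8 to 10.2 and 3.39 (adjusted p = 0.0356 and 0.0486). Chgb, its relative, fell from 99.2, 139 and 43.7 to 15.7 and 8.16 (-2.79, adjusted p = 0.0352). Hormones and granule proteins thus moved alike. The fate factors were lower too, yet closer to the filter: Neurod1 fell from 2.23, 2.80 and 2.01 to 0.31 and 0.32 (-1.34, adjusted p = 0.0302), and Neurog3 was at 2.44, 1.49 and 1.27 early and 0.46 and 0.91 late (adjusted p = 0.0978).

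Paneth cells at the crypt base secrete lysozyme and alpha-defensins. Of 29 Paneth cell defence genes 17 were apart and lower, none higher, and 10 fell, with a median of -2.24. Lyz1, or lysozyme, was at 6844, 4289 and 1875 FPKM early and 489.9 and 896 late and fell by 2.52 (SE 0.57, adjusted p = 0.0442). Mmp7, the protease that activates defensins, fell from 238, 214 and 141 to 20.1 and 32.4 (-2.87, adjusted p = 0.0176). Ang4, an antimicrobial ribonuclease, fell from 1099, 618 and 196 to 31.3 and 63.03 (-3.49, adjusted p = 0.0388). The early arm was itself graded here, with VEMD2 highest and VEMD4 lowest in all of them.

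Defa31, an alpha-defensin, fell from 6594, 3538 and 1256 FPKM to 116 and 440.3 (-3.77, SE 0.82, adjusted p = 0.0411). Defa35 was at 3738, 1375 and 474 early and 56.2 and 297 late. Defa40 was at 406, 146 and 35.1 early and 8.17 and 15.5 late, and neither passed limma (adjusted p = 0.0648 and 0.0575). Other alpha-defensins of the list were higher late on average, with ranges that overlapped, namely Defa21 (1.84), Defa3 (1.49), Defa38 (0.70) and Defa20 (0.09). In the list, 3 members were apart and higher without VEMD6, and 3 without VEMD8. Defensin genes are close copies of one another, so single values are uncertain. The lectins Reg3b and Reg3g, which Paneth cells share with stressed enterocytes, ran the other way in 1 library: Reg3b was at 525, 434 and 2051 early and 389 and 9734 late, and Reg3g at 794, 1007 and 2908 early and 677 and 6988 late. VEMD8 was highest in both and VEMD4 next, and the summed FPKM of the list was 4630.5 in VEMD6 but 21845 in VEMD8.

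Goblet cells make mucus. Of 20 goblet cell genes 15 were apart and lower and 10 fell, with a median of -1.31. Muc2, the main gel-forming mucin, was at 226, 150.3 and 246 FPKM early and 45.97 and 77.5 late and fell by 1.75 (SE 0.30, adjusted p = 0.0332). Zg16, a lectin of the mucus layer, fell from 1095, 532 and 2249.6 to 83.7 and 107 (-3.52, adjusted p = 0.0324). Guca2a, or guanylin, fell from 596, 495 and 376 to 58.6 and 80.2 (-2.79, adjusted p = 0.0115). Against these, Agr2, a protein-folding enzyme of goblet cells, overlapped at 939.9, 644 and 507 early and 384 and 765 late, and Retnlb was high in VEMD4 and VEMD8 alone, at 0.09, 3.10 and 28.8 early and 1.78 and 52.8 late.

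The genes that choose between secretory and absorptive fate were lower in part. Among Notch and secretory fate genes 12 of 19 were apart and lower, 1 apart and higher, and 4 fell. Atoh1, the factor that commits cells to secretory fate, was at 13.6, 9.88 and 11.3 FPKM early and 3.42 and 4.50 late and fell by 1.34 (SE 0.19, adjusted p = 0.0305). Notch1, the receptor that opposes it, fell as well, from 4.79, 5.89 and 3.81 to 1.65 and 1.73 (-1.10, adjusted p = 0.0352). Tuft cells, rare chemosensory cells, left 5 of 18 listed genes above the filter, and limma passed none (2 at an unadjusted p under 0.05). Without VEMD6, no secretory gene of the Paneth, goblet or enteroendocrine lists passed limma (12, 12 and 17 at an unadjusted p under 0.05), while 19, 15 and 20 of them were apart and lower. Here too, counts of genes apart cannot drop when a library is left out. Without VEMD3 the counts that fell were 0, 3 and 2, and after rescaling to the median gene 5, 10 and 13.

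**Figure D3:**
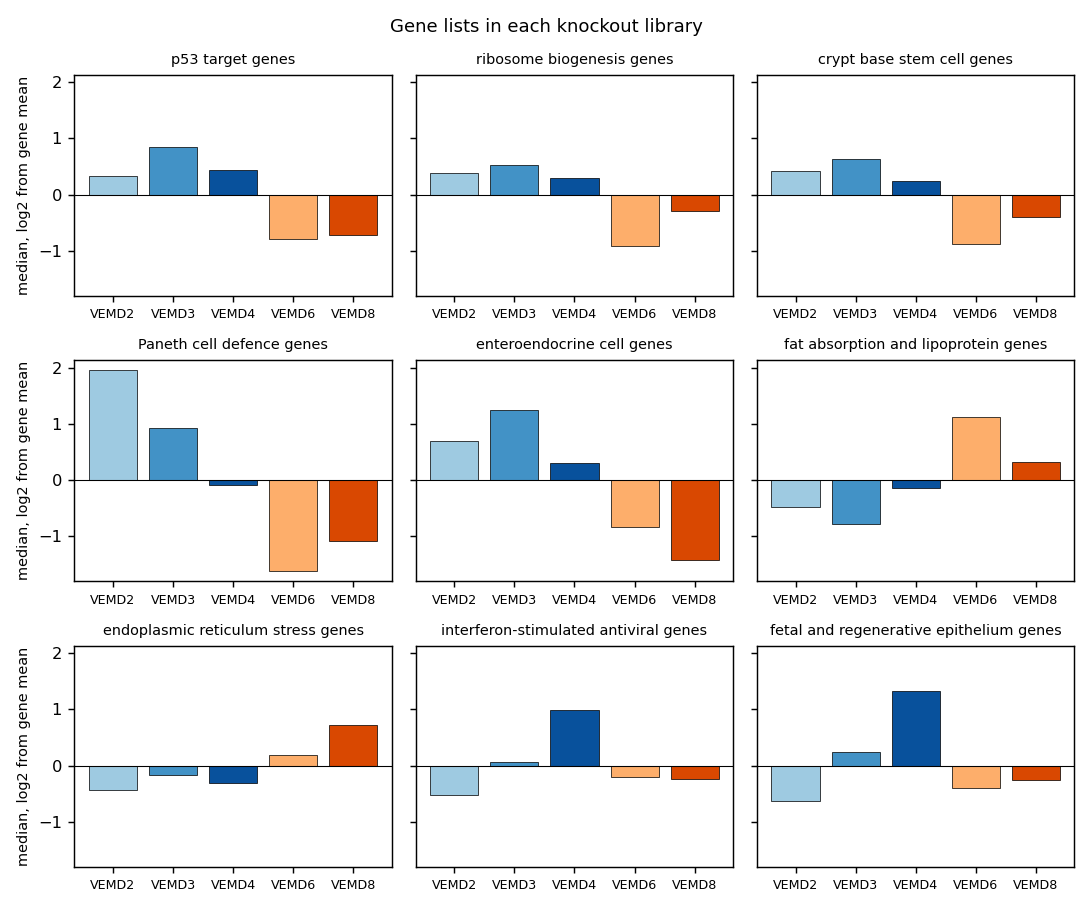
Median over the tested members of 9 gene lists in each library, as log2(FPKM + 1) minus the gene's mean over the 5 libraries. p53 targets and ribosome biogenesis are above 0 in all 3 early libraries and below it in both late ones, whereas interferon-stimulated and fetal genes peak in VEMD4 alone.

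Genes of nutrient absorption moved the other way. Of 27 fat absorption and lipoprotein genes 17 were apart and higher, against 15.7% of all tested genes, and 10 rose by limma, with a median of 1.21. Rbp2, which carries retinol in enterocytes, was at 817, 407 and 799.7 FPKM early and 5062 and 2559 late and rose by 2.48 (SE 0.43, adjusted p = 0.0332). Fabp1, a fatty acid binding protein, rose from 771, 221 and 433 to 2825 and 1449 (2.27, adjusted p = 0.0481). Dgat2, which makes triglyceride, rose from 37.5, 39.8 and 67.9 to 234 and 155 (2.01, adjusted p = 0.0318). VEMD6 stood above VEMD8 in all of them.

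Mttp, which loads lipid onto chylomicrons, rose from 339, 208 and 394 FPKM to 1378 and 807 (1.80, adjusted p = 0.0376). Creb3l3, a transcription factor of lipid metabolism, rose from 51.2, 28.7 and 63.2 to 205 and 133 (1.84, adjusted p = 0.0368). The apolipoprotein gene Apoc2 was apart and higher, at 145, 231 and 646 early and 1574 and 773 late, without passing limma (adjusted p = 0.0775). Apoa4 overlapped, at 574, 1039.9 and 2571 early and 4304 and 1585 late, with VEMD4 above VEMD8. Clps, or colipase, at 138, 56.4 and 19.2 early and 10.4 and 19.9 late, had the lowest difference in the list, -1.81.

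Fatty acid oxidation and ketogenesis genes were apart and higher in 19 of 28, none lower, and 5 rose, with a median of 0.55. Pdk4, a kinase that spares glucose, rose from 0.66, 0.64 and 0.91 FPKM to 11.6 and 3.39 (2.10, adjusted p = 0.0387). Ppara, the nuclear receptor of this pathway, was apart and higher at 5.53, 2.33 and 1.80 early and 7.59 and 7.36 late, with adjusted p = 0.0777. Its early values were spread, VEMD2 being nearer to the late libraries than VEMD3 and VEMD4.

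Brush border digestive enzymes were mixed. Of 29 tested, 13 were apart and higher and 3 apart and lower, and limma passed 3 that rose and 2 that fell, with a median of 0.90. Ggt1, a membrane transferase of glutathione, rose from 53.2, 29.5 and 62.8 FPKM to 235 and 133 (1.91, adjusted p = 0.0379), beside Alpi and Tmprss15. Anpep, an aminopeptidase, was apart and higher at 705, 399 and 936 early and 3497 and 1496 late (adjusted p = 0.0539). Enpp7, the alkaline sphingomyelinase, fell from 42.8, 15.6 and 20.7 to 6.94 and 0.89 (-2.69, adjusted p = 0.0488), and Naaladl1, a peptidase, was apart and lower at 109, 49.9 and 30.2 early and 15.2 and 2.87 late (adjusted p = 0.0513). Lct, or lactase, split the late arm, at 24.01, 6.25 and 5.87 early and 16.7 and 0.39 late.

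Among 24 sugar, peptide and amino acid transporters, 11 were apart and higher and 2 apart and lower, and 2 rose. Slc2a2, or GLUT2, which passes sugars to the blood, rose from 28.4, 8.67 and 13.3 FPKM to 123 and 49.96 (2.32, adjusted p = 0.0462). Slc6a19, the main carrier of neutral amino acids, was apart and higher at 40.6, 24.7 and 72.7 early and 263 and 92.3 late (adjusted p = 0.0672). Drug and xenobiotic enzymes were apart and higher in 16 of 31 and lower in 2, with 6 that rose, 1 that fell and a median of 1.07. Ces2c, a carboxylesterase, rose from 58.1, 36.3 and 65.8 to 420.4 and 187 (2.41, adjusted p = 0.0324). Cyp1a1, the enzyme induced through the aryl hydrocarbon receptor, was at 1.19, 11.3 and 5.80 early and 95.5 and 21.6 late. It was apart and higher, with a mean difference of 3.04, but short of the threshold (adjusted p = 0.0591).

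These absorptive lists leaned on VEMD6 in size as well. Their medians without VEMD6 were 0.78 for fat absorption, 0.42 for fatty acid oxidation, 0.47 for the brush border, 0.44 for transporters and 0.58 for drug enzymes. Limma then passed none of their members (9, 8, 8, 4 and 11 at an unadjusted p under 0.05), and 17, 22, 13, 12 and 17 were apart and higher. Without VEMD3, 1 brush border gene rose and none of the other 4 lists passed. Rescaled to the median gene, 7 fat absorption, 6 fatty acid oxidation, 3 brush border, 0 transporter and 6 drug enzyme genes rose. Of 13 broad epithelial genes, which mark the tissue itself, 7 overlapped, 4 were apart and lower and 2 apart and higher, and limma passed none (3 at an unadjusted p under 0.05). Epcam was at 733, 785 and 904 early and 887 and 699.5 late, while Krt18, a keratin, was apart and lower (-1.03) and Vil1, or villin, apart and higher (0.89).

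**Figure D4:**
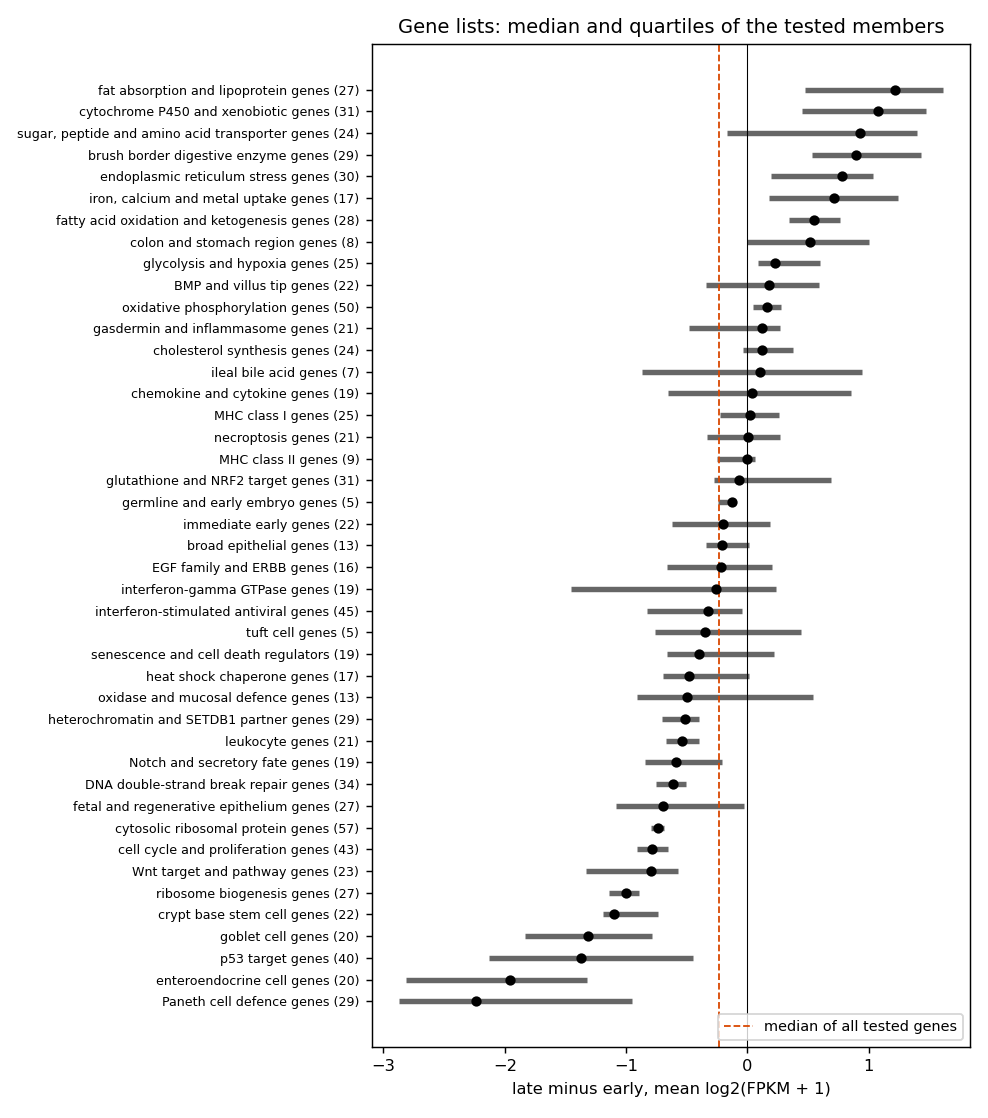
Median (point) and quartiles (bar) of the difference, late minus early in mean log2(FPKM + 1), over the tested members of each gene list, with the number tested in parentheses. The dashed line is the median of all tested genes, at -0.24, and the lists run from Paneth cell defence genes, at -2.24, to fat absorption genes, at 1.21.

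Metal uptake genes held some of the widest rises. Of 17 tested, 7 were apart and higher and none lower, and 5 rose, with a median of 0.71. Beside Slc40a1, Heph, the ferroxidase that works with it, rose from 34.1, 34.3 and 55.4 FPKM to 115 and 81.5 (1.25, adjusted p = 0.0409). Slc11a2, or DMT1, which brings iron in, rose from 16.8, 18.3 and 17.7 to 27.9 and 31.2 (0.71, adjusted p = 0.0356). Slc30a10, a manganese exporter, rose from 1.61, 0.69 and 3.09 to 31.1 and 14.2 (3.07, adjusted p = 0.0308). Atp2b1, a calcium pump, rose from 21.8, 23.8 and 24.4 to 64.8 and 48.9 (1.24, adjusted p = 0.0283).

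Import and export genes of iron rose together, while Cybrd1, the ferric reductase, overlapped at 0.98, 0.52 and 0.65 early and 3.18 and 0.73 late. S100g, or calbindin D9k, was high in VEMD6 alone, at 10.5, 8.74 and 5.38 early and 251.32 and 7.67 late. Slc34a2, a phosphate carrier, was low in VEMD8 alone, at 16.5, 9.57 and 21.03 early and 10.1 and 0.58 late. Without VEMD6 limma passed none of the 17 (8 at an unadjusted p under 0.05), and without VEMD3 it passed 1.

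Iron export, Pdx1 and Akp3 are features of duodenum, and glucagon, neurotensin and bile acid uptake features of ileum, so genes of gut region were examined too. Among 8 colon and stomach region genes, a list that also holds patterning factors, 4 were apart and higher and 3 rose, Pdx1, Onecut2 and Gata4. Onecut2, a factor of duodenum, rose from 3.12, 3.84 and 4.68 FPKM to 14.5 and 16.4 (1.76, SE 0.18, adjusted p = 0.0178). Gata4, a factor of jejunum and duodenum, rose from 38.6, 35.99 and 39.1 to 59.3 and 56.8 (0.60, adjusted p = 0.0406). Without VEMD6, 1 of the 3 still rose.

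Ileal bile acid genes split. Fabp6, the ileal bile acid binding protein, fell from 51.7, 8.19 and 5.54 FPKM to 0 and 0.38 (-3.64, SE 0.85, adjusted p = 0.0456). Slc10a2, the ileal bile acid carrier, fell from 3.10, 5.27 and 4.67 to 1.12 and 1.22 (-1.28, adjusted p = 0.034). Slc51a and Slc51b together export bile acids to the blood. Slc51a overlapped, at 51.98, 19.6 and 32.7 early and 95.5 and 51.6 late, and Slc51b was apart and higher, at 61.1, 32.2 and 72.4 early and 173 and 78.5 late. Of 7 tested members, 2 were thus apart and lower and fell, and 2 apart and higher without passing.

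A pair of lists of proximal and distal small intestine genes was then drawn up after these values had been seen, so its counts are a description only. Of 20 proximal genes, 11 were apart and higher and 3 apart and lower, and 11 rose while 2 fell. Of 9 distal genes, 5 were apart and lower and 1 apart and higher, and 5 fell. The 3 proximal genes apart and lower are hormones: Gip and Cck, which fell with the other enteroendocrine genes, and Sct, or secretin, which was apart and lower without passing limma. Gcg, Nts and Pyy, among the 5 distal genes that fell, are hormones of that enteroendocrine list too. All 20 tested genes of that list were apart and lower, so hormones of either region do not separate the regions here. The other distal genes that fell were Fabp6 and Slc10a2, while Slc51b was apart and higher. Cck was at 25.6, 49.5 and 31.7 FPKM early and 10.9 and 3.02 late, and Pyy, an ileal and colonic hormone, at 5.53, 5.45 and 5.66 early and 0 and 0.13 late. The labels name no gut segment for any crypt library, and whether the libraries came from the same segment cannot be told from them. Without VEMD6, 2 proximal genes rose and no distal gene passed limma (6 at an unadjusted p under 0.05).

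**Figure D5:**
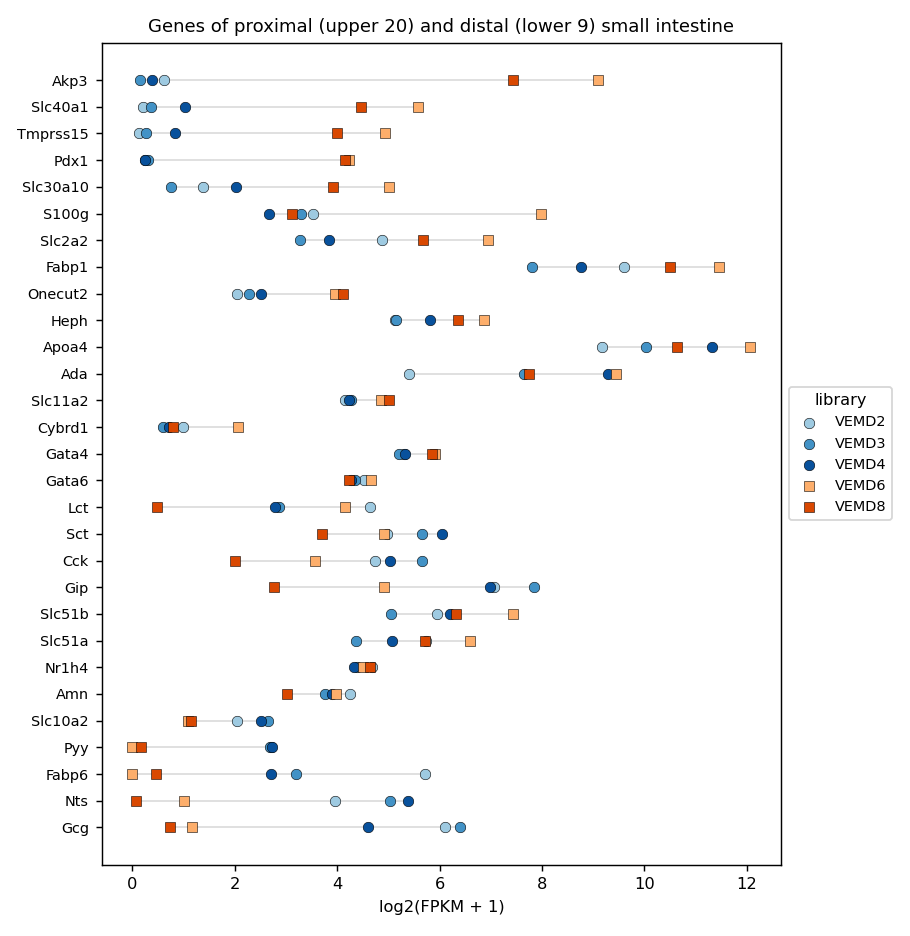
Values of 20 genes of proximal and 9 genes of distal small intestine in each library, as log2(FPKM + 1), with each block in order of the difference. Circles are early and squares late libraries. The squares lie right of the circles for the upper proximal genes and left of them for Gcg, Nts, Fabp6, Pyy and Slc10a2.

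Chaperones of the endoplasmic reticulum were mostly higher late. The endoplasmic reticulum folds secreted and membrane proteins, and its stress response raises chaperones and degradation factors. Of 30 such genes 19 were apart and higher and 1 lower, and 11 rose, with a median of 0.78. Unlike the absorptive lists, this one was higher in VEMD8 than in VEMD6, with 4581, 5354 and 4688 FPKM in sum early and 6813 and 10270.1 late. Its median without VEMD6 was 0.99, with 26 genes apart and higher, though limma then passed none (22 at an unadjusted p under 0.05), nor did it without VEMD3 (18 at an unadjusted p under 0.05).

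Sdf2l1, a chaperone cofactor, was at 74.02, 99.9 and 71.2 FPKM early and 186 and 256 late and rose by 1.42 (SE 0.22, adjusted p = 0.0318). Herpud1, which helps to degrade misfolded proteins, rose from 63.2, 83.02 and 68.9 to 139.6 and 260.4 (1.41, adjusted p = 0.0386). Dnajb9 rose from 30.1, 30.7 and 31.2 to 62.2 and 76.9 (1.15, adjusted p = 0.0272) and Dnajc3 from 40.2, 44.3 and 36.6 to 73.6 and 111 (1.15, adjusted p = 0.0352), both cochaperones. Creld2, a small secreted folding factor, rose from 96.8, 123 and 106 to 198 and 247 (1.02, adjusted p = 0.0339). The early values of these genes lay close together.

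Hspa5, or BiP, the central chaperone, was apart and higher at 704, 924 and 742 early and 1143 and 2277 late; the late libraries lay far from each other, and it did not pass limma (adjusted p = 0.0742). Chac1, a glutathione-degrading enzyme of the ATF4 branch, was at 2, 1.71 and 4.20 early and 6.80 and 33.4 late, and Ddit3, or CHOP, at 11.7, 15.8 and 17.6 early and 20.9 and 37.8 late. Neither passed (adjusted p = 0.0586 and 0.0779). Atf4 itself and its amino acid target Asns overlapped, with only VEMD8 above the early values: Atf4 was at 159, 165 and 172 early and 156 and 243 late, and Asns at 51.3, 58.6 and 57.96 early and 50.2 and 106 late. Ern2, a stress sensor of goblet cells, had the lowest difference in the list, -0.83, with values apart and lower.

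Promoter stretches are shown for 3 of these genes because the element that names the response can be read in them. The element is CCAAT, 9 bases of any kind, then CCACG, searched on both strands of the 250 bases before the start. It lay in 8 of 27 genes of the list with a promoter (29.6%), namely Hspa5, Hsp90b1, Calr, Canx, Pdia6, Dnajc3, Creld2 and Syvn1, and in 15 of 8804 tested genes (0.17%). Both boxes are in capitals, and Creld2 carries them in reverse.
Hspa5, chr2:34772005-34772063, plus strand: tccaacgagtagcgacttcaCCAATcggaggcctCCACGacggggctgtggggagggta
Dnajc3, chr14:118937807-118937865, plus strand: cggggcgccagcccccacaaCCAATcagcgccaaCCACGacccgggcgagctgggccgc
Creld2, chr15:88819500-88819558, plus strand: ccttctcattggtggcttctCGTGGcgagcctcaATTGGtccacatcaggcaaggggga
Of the 8 genes with the element, Dnajc3, Creld2 and Pdia6 rose. Hspa5, Hsp90b1 and Calr were apart and higher without passing, and Canx and Syvn1 overlapped. Pdia6, a disulfide isomerase, was at 236, 263 and 219 FPKM early and 359.8 and 468 late (0.78, adjusted p = 0.0474), and Canx, or calnexin, at 216, 214 and 175 early and 177 and 221 late. The element was chosen with the list's direction known, and its presence says nothing of whether it was used.

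Heat shock chaperones of cytosol and mitochondria had 8 of 17 apart and lower and 1 apart and higher, and 2 fell, with a median of -0.48. These counts are near the background of 43.8% apart and lower and 10.0% fallen, so they show nothing particular to the list. Fkbp4 and Ahsa1, cochaperones of HSP90, fell by 0.77 and 0.72 (adjusted p = 0.0484 and 0.0425). Hsp90ab1 was apart and lower at 1251, 1541 and 1289 FPKM early and 712 and 944 late, without passing (adjusted p = 0.0715). Hspa1a and Hspa1b, an inducible pair of near-identical genes, overlapped, Hspa1a at 11.2, 28.2 and 23.7 early and 20.2 and 37.4 late. After rescaling, limma passed none of the 17.

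Interferon-stimulated antiviral genes, by contrast, mostly overlapped. Of 45 tested, 33 overlapped, 11 were apart and lower and 1 apart and higher, and 3 fell, with a median of -0.33. Over all tested genes, 43.8% were apart and lower, 15.7% apart and higher and 10.0% fell, with a median of -0.24. Each of these counts of the list lay below its background. The 3 that fell were Mx1 and Mx2, GTPases that block viruses, and Ifi27l2a. Mx1 fell from 6.66, 20.6 and 36.4 FPKM to 2.20 and 2.15 (-2.53, SE 0.61, adjusted p = 0.0475), and Mx2 from 5.78, 8.91 and 16.7 to 0.82 and 1.96 (-2.19, adjusted p = 0.0368). Others were high in VEMD4 and still high late: Oasl1 was at 28.1, 54.5 and 212 early and 179.9 and 118 late, and Rsad2, or viperin, at 4.73, 10.5 and 75.5 early and 24.9 and 24.9 late. The summed FPKM of the list were 1232, 1869 and 3651 early and 1731 and 1604 late, with the peak in VEMD4. Without VEMD4, 10 were apart and higher and 11 apart and lower, 4 rose and 2 fell, and the median was -0.05. Without VEMD2, 25 were apart and lower and 5 fell, and without VEMD3 or VEMD6 none passed limma (6 and 4 at an unadjusted p under 0.05).

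GTPases and other genes induced by interferon-gamma overlapped in 13 of 19, were apart and lower in 6, and 1 fell. Both counts lay below the 43.8% apart and lower and the 10.0% fallen among all tested genes. Without VEMD6, 14 were apart and lower, and without VEMD8, 6 were apart in each direction. The gene that fell was Gbp3, from 7.82, 9.39 and 13.5 FPKM to 1.49 and 1.55 (-2.12, adjusted p = 0.0191). Its relative Gbp4, by contrast, was at 10.4, 23.4 and 46.5 early and 131 and 40.5 late. Antigen presentation genes of MHC class II overlapped in all 9 tested, and limma passed none (0 at an unadjusted p under 0.05). Their levels set the late libraries apart from each other: Cd74, the invariant chain, was at 1641, 1360.1 and 950.2 early and 2033 and 826 late. H2-Aa was at 469.8, 315 and 229 early and 615 and 146 late, with VEMD6 highest and VEMD8 lowest in both genes. Without VEMD6, 5 of the 9 were apart and lower, and without VEMD8, 5 were apart and higher. MHC class I genes had 3 of 25 apart and higher and 2 lower, against 15.7% and 43.8% of all tested genes. Limma passed none of them (5 at an unadjusted p under 0.05).

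In necroptosis the kinase RIPK3 activates MLKL, which breaks the cell membrane, and ZBP1 is a nucleic acid sensor that can start it. Of 21 such genes 13 overlapped, 6 were apart and lower and 2 apart and higher, and limma passed none (6 at an unadjusted p under 0.05), with a median of 0.01. Both counts apart lay below the 43.8% lower and 15.7% higher among all tested genes. After rescaling to the median gene, 7 of the 21 were apart and higher and 4 apart and lower, and 1 rose. Mlkl was at 27.97, 32.1 and 41.5 FPKM early and 34.3 and 32.6 late, and Zbp1 at 56.8, 74.3 and 133 early and 98.98 and 69.2 late. The intervals of these differences were wide, 0.00 with SE 0.19 and 0.01 with SE 0.37. Ripk3 was apart and lower, at 61.7, 54.1 and 46.97 early and 45.98 and 39.3 late (adjusted p = 0.181).

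Among gasdermin and inflammasome genes, 16 of 21 overlapped, 2 were apart and higher and 3 apart and lower, and 1 rose and 1 fell. Over all tested genes the shares were 15.7% apart and higher, 43.8% apart and lower, 3.73% risen and 10.0% fallen. Casp6, a caspase active in several death pathways, rose from 41.6, 26.8 and 25.3 FPKM to 98.1 and 74.3 (1.46, adjusted p = 0.0332). Gsdme, a pore-forming gasdermin, fell from 5.31, 4.34 and 5.09 to 2.81 and 1.71 (-0.88, adjusted p = 0.0454).

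Chemokines and cytokines ran both ways, with 6 of 19 apart and higher, 5 apart and lower, 2 that rose and 4 that fell. Over all tested genes the shares were 15.7%, 43.8%, 3.73% and 10.0% in that order. Beside Ccl20, Pigr, the receptor that carries IgA into the lumen, rose from 544, 369 and 356 FPKM to 1069 and 747 (1.10, adjusted p = 0.049). Ccl6, a chemokine, fell from 167, 79.4 and 45.5 to 4.83 and 4.73 (-3.89, adjusted p = 0.0272). Il1rn, which blocks the interleukin-1 receptor, fell from 2.30, 9.99 and 10.1 to 0.17 and 0.35 (-2.55, adjusted p = 0.0406). Lif, a cytokine, and Csf1, a growth factor of macrophages, fell by 1.41 and 1.04.

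Mucosal defence genes were mixed as well, with 3 of 13 apart in each direction and 2 that fell. Over all tested genes, 15.7% were apart and higher, 43.8% apart and lower and 10.0% fell. The 2 that fell were Reg4, a lectin of secretory cells, from 200.2, 238 and 122 FPKM to 47.8 and 42.5, and Nox1, an oxidase, from 23.4, 47.9 and 41.9 to 14.04 and 16.1 (adjusted p = 0.0308 and 0.0495). Reg1 was at 4.78, 4.01 and 10.8 early and 18.6 and 94.5 late, with VEMD8 highest as for Reg3b.

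Fetal and regenerative epithelium genes mark crypts that repair damage. Of 27 tested, 20 overlapped and 7 were apart and lower, and 2 fell, with a median of -0.70. Over all tested genes, 43.8% were apart and lower, 10.0% fell and the median was -0.24. Neither count of the list thus stood above its background. Ajuba, a partner of the YAP pathway, fell from 8.81, 13.6 and 9.25 FPKM to 1.53 and 0.97 (-2.35, SE 0.23, adjusted p = 0.0165), and Krt7, a keratin of simple epithelia, from 83.9, 129.97 and 163 to 50.5 and 58.6. Ly6a, or Sca-1, was apart and lower at 368, 789.5 and 1075 early and 162 and 275 late (adjusted p = 0.0605). Clu, or clusterin, overlapped, with VEMD2 low, at 4.55, 40.6 and 77.2 early and 14.9 and 9.47 late. Sprr2a1, a barrier protein, was at 56.7, 224 and 681 early and 920.1 and 414 late, and here the late libraries resembled VEMD4 more than VEMD2. Single libraries set the counts of this list. Without VEMD2, 17 were apart and lower and 7 fell, whereas without VEMD4, 5 were apart and higher, 7 apart and lower, 1 rose and 1 fell, and the median was -0.19. Without VEMD6 none passed limma (3 at an unadjusted p under 0.05).

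Heterochromatin genes and partners of SETDB1 came next. Of 29 tested 19 were apart and lower, none higher, and 6 fell, with a median of -0.51. All tested genes had 43.8% apart and lower, 10.0% fallen and a median of -0.24. Trim28, or KAP1, the scaffold that brings SETDB1 to its targets, was at 70.9, 74.6 and 59.4 FPKM early and 28.6 and 39.4 late and fell by 0.996 (SE 0.19, adjusted p = 0.0364). Uhrf1 and Dnmt1, which copy DNA methylation at replication, fell by 1.08 and 0.99 (adjusted p = 0.0376 and 0.0403). Suv39h1, another lysine 9 methyltransferase, fell from 25.1, 24.04 and 19.9 to 12.1 and 14.7 (-0.74, adjusted p = 0.0432), and Eed, a Polycomb subunit, from 43.02, 48.5 and 39.4 to 20.1 and 26. Without VEMD6 none of the 29 passed limma (9 at an unadjusted p under 0.05). Germline genes, often silenced by such marks, left 5 of 30 above the filter. All 5 overlapped, and Tex19.1 was at 0.20, 4.54 and 15.99 early and 13.1 and 19.9 late.

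Markers of other cell types were checked last. Leukocyte genes, 35 of 36 with values, summed to 191, 239.9 and 371 FPKM early and 194 and 119 late. Of 21 tested, 10 were apart and lower, near the background of 43.8%, and without VEMD2 or VEMD6 19 and 18 were. By limma 1 fell, against 10.0% of all tested genes, the mast cell protease Mcpt1, from 13.3, 10.9 and 41.1 to 3.56 and 2.35. Stroma and vessel genes, 23 with values, summed to between 11.1 and 16.2, with Cnn1 at 0 throughout, and 3 were tested. Lyve1 was the only one of these that rose, from 1.86, 2.26 and 5.69 to 13.2 and 10.7 (1.70, adjusted p = 0.0421). Red blood cell genes, 3 of 6 with values, summed to between 0.33 and 1.32, and nerve and muscle genes, 10 of 13 with values, to between 5.65 and 10.3. Pancreas genes, 4 of 12 with values, summed to 141, 60.4 and 23.9 early and 12.9 and 23.2 late, most of it Clps. Listed genes without values add nothing to these sums, so low sums do not show that such cells were absent. The part of leukocytes in the differences of the immune lists was not tested.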

How the data were processed

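RNA of knockout crypts was sequenced on a BGI-500 instrument, per the labels' protocols. The authors deposited FPKM values to 2 decimals, and the submitters' processing notes name HISAT2, featureCounts, edgeR and GRCm38/mm10, with no versions or roles. Counts were not used here, so depth and counting error are unknown. Of 16958 genes with values, 10862 had a mean of at least 1 FPKM over the 6 crypt columns and were tested, and 16916 matched a symbol in RefSeq. Values were turned into log2(FPKM + 1), which understates the change of low genes. The 3 early and 2 late knockout libraries were compared with limma 3.58.1 in R 4.3.3, with an intensity trend and Benjamini-Hochberg adjustment over all tested genes. The test was checked on simulated data in which each gene had independent noise, with no effect shared by a whole library. That check therefore does not cover how far the calls lean on single libraries. Residual degrees of freedom were 3, so single libraries weigh heavily. Standard errors are limma's.

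Genes named are Setdb1, the 15 genes highest and the 15 lowest by difference (ranges apart, averaging 5 FPKM or more, numbered gene models left out), and at most 6 members per list, taken by size of difference. Other members, such as Cdkn1a, Mdm2, Lgr5, Olfm4 and Mki67, were named after their values were seen. The members and the 47 gene lists were chosen with earlier results of these data known. The lists of proximal and distal small intestine genes were added after seeing the values. Alternatives were 2 other pseudocounts, 3 other filters, rescaling to the median gene, limma without a trend, and leaving out each library. Promoter sequence came from RefSeq (GRCm38.p6). Some genes of these lists are not reported here.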

Additional observations from a re-analysis of the deposited data

How the results depend on the processing

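No paired analysis was possible because the labels give the early and late libraries no shared replicate numbers. With no filter on low values, limma passed 6 genes that rose and 9 that fell, in place of 405 and 1088, and the cause was not tested. Rescaling to the median gene gave 2713 genes apart and higher and 551 that fell. Leaving out each library in turn gave between 5 and 617 genes that rose and between 1 and 2187 that fell, lowest without VEMD6 and highest without VEMD8, and a lone late library was then assumed to vary like the early ones. Without VEMD2 the counts were 192 and 328, and without VEMD3 10 and 19. Of the 1493 genes passed with all libraries, 4 still passed without VEMD6 and 29 without VEMD3. The counts of genes apart, with no limit on size, cannot depend on the pseudocount. Under the other filters they stayed within 1.5 times their value. Those apart with a mean difference of at least 1 on the log2 scale did not, under alternatives chosen after seeing the data. There were 226 higher and 168 lower at a pseudocount of 5 FPKM, 920 lower at 0.1 FPKM and 306 lower after rescaling. Leaving out each library gave 286 to 586 higher and 388 to 1261 lower. Counted over named genes and alternatives, 307 outcomes kept direction and side of the threshold, 57 lost the threshold, 8 gained it and none changed direction. The genes counted there were apart with all 5 libraries. Leaving out a library, or using another pseudocount or filter, therefore could not turn their direction. Of 41 list medians, taken relative to all genes, 11 changed sign under at least 1 alternative. Without VEMD4, fetal genes went from -0.46 to 0.07, mucosal defence genes from -0.26 to 0.52 and interferon-stimulated genes from -0.09 to 0.22. Without VEMD8 interferon-gamma genes went from -0.02 to 0.34, and MHC class II genes from 0.23 to -0.64 without VEMD6. Broad epithelial, immediate early and EGF family medians stood at 0.03, 0.04 and 0.02 and changed sign under 4 or 5 alternatives. MHC class I genes, at 0.26 with all libraries, ran from -0.1689 without VEMD6 to 0.6174 without VEMD8. Chemokine and cytokine genes, at 0.27, ran from -0.0307 without VEMD2 to 0.6782 without VEMD4. Senescence regulators, at -0.16, ran from -0.1871 without VEMD4 to 0.0318 without VEMD2, and stood at 0.0743 with a filter of 5 FPKM. Depth cannot be read from FPKM, so no limit of detection is given.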

Other observations

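Lists of metabolism and signalling not described so far gave the following counts. Of all tested genes, 15.7% were apart and higher, 43.8% were apart and lower, 3.73% rose and 10.0% fell. Oxidative phosphorylation genes, the mitochondrial respiratory chain, had 22 of 50 apart and higher, none lower, and 1 that rose, with a median of 0.16 and a highest difference of 0.65. After rescaling to the median gene, 39 of the 50 were apart and higher and 2 rose, with a median of 0.38. Glycolysis and hypoxia genes had 12 of 25 apart and higher and 2 apart and lower, and 2 rose. Bnip3, a mitophagy receptor, rose from 2.27, 1.09 and 3.26 FPKM early to 6.69 and 5.93 late (1.25, adjusted p = 0.049), and Pfkp, a phosphofructokinase, from 76.5, 67.2 and 88.5 to 147 and 121 (0.79, adjusted p = 0.0432). Cholesterol synthesis genes had 7 of 24 apart and higher and 2 apart and lower, and limma passed none (3 at an unadjusted p under 0.05). After rescaling, 13 were apart and higher, none lower, and 2 rose. Glutathione and NRF2 target genes were split, with 8 of 31 apart and higher, 6 apart and lower, and 4 that rose, among them the glutathione transferase genes Gstm6 and Gstt1, by 1.27 and 1.21.

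Among EGF family genes 6 of 16 were apart and lower and 2 fell, near the 43.8% and 10.0% of all tested genes. The 2 that fell were the transcription factor Etv4 and the receptor inhibitor Lrig1, by 1.12 and 0.85 on the log2 scale (adjusted p = 0.0324 and 0.0464). Genes of BMP signalling and the villus tip had 4 of 22 apart and higher and 3 apart and lower, with 1 that rose and 1 that fell. Krt20, a keratin of mature epithelium, was apart and higher at 376, 308 and 657 early and 1458 and 869 late without passing limma (adjusted p = 0.0565). Immediate early genes had 8 of 22 apart and lower, 1 apart and higher, and 2 that fell. The shares lower and fallen were again near those of all tested genes. Of the 2, Egr1 fell from 23.1, 26.9 and 26.9 to 14.3 and 16.6 (-0.69, adjusted p = 0.0406). Senescence and cell death regulators had 10 of 19 apart and lower and 3 apart and higher, and Trp53, Casp2 and Bid fell. The shares over all tested genes were 43.8% apart and lower, 15.7% apart and higher and 10.0% fallen.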
